A study of Mus musculus with 20 samples.

Results

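The phagocyte NADPH oxidase is the enzyme complex with which macrophages, microglia and neutrophils make superoxide. Described here are 6 of its genes, chosen by name from the 55487 genes of the count table: *Cybb*, *Cyba*, *Ncf1*, *Ncf4*, *Rac2* and *Hvcn1*. All 6 passed the filter on low counts, as did 12799 genes in all. RNA was sequenced from 20 cultures of BV-2 cells, an immortalized mouse microglial line of wild-type genotype, in 4 groups of 5. Young (control) cultures were at low passage and aged cultures had been kept in continuous long-term culture, and each was either left untreated or given lipopolysaccharide (LPS), a component of the outer membrane of Gram-negative bacteria, at 100 ng/ml for 6 hours. Aged here means time in culture of an established line, not the age of an animal, and untreated aged and young cells differ in passage history. The labels give replicate numbers as batch numbers, and all 4 groups are present once in every batch.

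In a resting phagocyte the oxidase lies apart in pieces. A heterodimer of gp91phox (NOX2, from *Cybb*) and p22phox (from *Cyba*) sits in the membrane and carries the flavin and heme groups that pass electrons from NADPH to oxygen. Cytosolic subunits, among them p47phox (*Ncf1*) and p40phox (*Ncf4*), move to it after phosphorylation, together with the small GTPase Rac2. The proton channel encoded by *Hvcn1* is no subunit, but carries protons out of the cell and balances the charge that the electrons take across the membrane. In microglia the oxidase is known as a source of reactive oxygen in inflamed brain tissue.

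Total counts were 11371508 to 16829292 per library. Of 10 markers of microglia and macrophages all 10 were tested, with a summed level, in CPM (read counts scaled to the size of the library), of 1866 to 2480 (young) and 1547 to 2134 (aged) without LPS. With LPS the sums were 2088 to 2860 (young) and 1743 to 2460 (aged). Of these 10, 3 were lower in aged untreated cells (edgeR, adjusted p below 0.05), against 7.81% of all genes. In aged LPS-treated cells 4 were lower and 1 higher, against 15% of all genes lower and 1794 of 12799 higher. After LPS 2 rose and 4 fell in young cells, against 31.2% of all genes that rose and 4282 of 12799 that fell. In aged cells 2 rose and 3 fell, against 27.5% and 3445 of 12799. *Cx3cr1* and *P2ry12*, which mark microglia in the brain, stayed below 2 CPM in every library. Neutrophils also use this oxidase, and their markers summed to 0.421 to 3.0 CPM, with 5 of 8 (*S100a8*, *S100a9*, *Ltf*, *Mpo* and *Ly6g*) at or below the floor of 3 counts in all 20 libraries. The summed neutrophil markers were 1.88 to 3.0 CPM in young and 0.421 to 1.45 CPM in aged libraries. *Mmp8* had the highest mean of the 8, at 2.315 CPM in young and 0.5806 in aged untreated cells, and 1.25 and 0.4805 with LPS. Without LPS *Elane* (0.1313 CPM in young, 0.2015 in aged) and *S100a8* (0.0515 and 0.0784) went the other way. The part of these marker levels in the differences by age was not tested. Markers of B cells, T cells, neurons, astrocytes and fibroblasts summed to at most 0.747 CPM, and those of oligodendrocytes to at most 1.78 CPM, in any library. Floors cover counting error only. Fewer cells of a type and less RNA per cell cannot be told apart in these cultures. P-values measure the spread between the 5 cultures of a group. The authors froze aged cells after long-term culture and used aliquots of them. They give no number of separate long-term cultures, so the p-values by age may not cover the spread between such cultures.

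Upstream sequences are shown for the members that RefSeq's promoter table for GRCm38.p6 holds, namely *Cybb*, *Cyba* and *Ncf1*, since all 3 passed as higher after LPS. *Ncf4*, *Rac2* and *Hvcn1* have no entry. Each is the 250 bases before the annotated start, read 5′ to 3′ on the gene's own strand, which is the minus strand for all 3. Capitals mark matches on either strand to an interferon-type element (GAAA, any 2 bases, then GAAA), CCAAT or GGGCGG (a GC box). *Cybb* lies at chrX:9469325-9469574, *Cyba* at chr8:122432941-122433190 and *Ncf1* at chr5:134229626-134229875. The *Cybb* stretch falls in an intron of a longer *Cybb* transcript in GENCODE, and the *Cyba* stretch in an intron of *Gm20388* on the opposite strand.
Cybb: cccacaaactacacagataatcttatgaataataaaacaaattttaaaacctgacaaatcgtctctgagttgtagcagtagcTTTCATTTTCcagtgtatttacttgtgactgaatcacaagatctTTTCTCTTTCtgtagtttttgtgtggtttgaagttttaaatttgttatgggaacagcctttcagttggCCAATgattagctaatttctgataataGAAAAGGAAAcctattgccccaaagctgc
Cyba: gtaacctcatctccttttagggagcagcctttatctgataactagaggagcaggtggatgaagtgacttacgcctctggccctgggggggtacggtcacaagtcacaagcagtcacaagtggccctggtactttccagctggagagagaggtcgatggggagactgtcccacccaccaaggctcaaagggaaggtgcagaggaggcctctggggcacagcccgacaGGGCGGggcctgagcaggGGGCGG
Ncf1: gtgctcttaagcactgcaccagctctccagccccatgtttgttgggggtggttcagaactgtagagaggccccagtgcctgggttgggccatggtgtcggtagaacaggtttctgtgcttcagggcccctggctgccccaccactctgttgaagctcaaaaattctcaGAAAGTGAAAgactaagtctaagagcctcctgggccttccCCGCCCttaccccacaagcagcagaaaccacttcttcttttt
*Cybb* held 3 interferon-type elements, at positions -168 to -159 and -124 to -115 on the opposite strand and at -29 to -20 on the given strand, counted back from the start. *Ncf1* held 1, at -82 to -73, and *Cyba* none. Of 32851 upstream stretches in the table, which lists several per gene, 2.98% held this motif. The *Cybb* stretch also held CCAAT at -56 to -52, as 33.8% of all stretches did. *Cyba* held GGGCGG at -24 to -19 and -6 to -1, and *Ncf1* held it at -42 to -37 on the opposite strand, against 32.7% of all. No match to GAGGAA (23.3% of all), a kappaB-type element (GGGA, any 2 bases, then TTCC, 1.21%) or TATAAA (12.4%) lay in any of the 3. GC content was 34% in *Cybb*, 60% in *Cyba* and 54.4% in *Ncf1*, with a median of 52.4% over all stretches. A match is a description of the letters and was not tested for binding.

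The 6 genes were higher after LPS in young and in aged cells, and all but *Cyba* were lower in aged than in young cells, both without and with LPS. *Cybb* had the largest fold changes, and its partner *Cyba* the smallest. A gene is said to pass, or to have risen or fallen, where its adjusted p was below 0.05 in edgeR. After LPS all 6 of 6 genes passed as higher at each age. These counts stand beside 64.6% of the 12799 genes tested that passed in young cells (31.2% of the 12799 as higher) and 54.4% that passed in aged cells (27.5% as higher). The 6 genes had a median log2 fold change of 0.67 in young and 0.64 in aged cells beside -0.011 and 0.00051 over all genes. Between aged and young untreated cells 11.5% of all genes passed, 7.81% as lower, and 5 of 6 members passed as lower. Their median log2 fold change was -0.32, beside -0.014 over all genes. With LPS 29% of all genes differed by age, 15% as lower, against 5 of 6 members, whose median was -0.44 beside 0.0085 over all genes. Between aged LPS-treated and young untreated cells, the middle of the order, 4 of 6 members passed as higher, against 59.6% of all genes that passed and 29.7% that passed as higher. With age, all 5 aged libraries lay below all 5 young ones in 4 of 6 members in each treatment, against 6.63% of all genes without and 8.16% with LPS. With LPS, the groups lay apart and higher in 5 of 6 members at each age, against 23.9% of all genes in young and 21% in aged cells. Without replicate 2, and likewise without replicate 3, *Ncf1* and *Rac2* no longer passed between untreated aged and young cells, which left 3 members. Without replicate 4, or without replicate 5, *Hvcn1* did not pass. In the order of mean CPM all 6 genes ran from aged untreated through young untreated and aged LPS to young LPS cells.

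*Cybb* (ENSMUSG00000015340, GRCm38 chrX:9435252-9487771, minus strand) encodes the catalytic core that transfers the electrons. Without LPS its level was 313, 402, 384, 299 and 368 CPM in the 5 young cultures (batches 1 to 5, the order kept throughout) and 164, 195, 197, 199 and 219 CPM in the 5 aged ones. With LPS it was 2662, 2657, 2411, 2139.8 and 2425 CPM in young and 1412, 1647, 1799, 1617 and 1554 CPM in aged cultures. None of the 4 groups overlapped with another, and every aged culture lay below every young one of the same treatment. LPS raised the *Cybb* level 6.96-fold in young cells (log2 fold change 2.80 ± 0.092 SE, adjusted p = 5.03e-17, edgeR, n = 5 per group) and 8.25-fold in aged cells (3.04 ± 0.093, adjusted p = 2.7e-17). *Cybb* was 1.81-fold lower in aged than in young cells without LPS (log2 fold change -0.86 ± 0.088, adjusted p = 1.11e-06) and 1.53-fold lower with it (-0.61 ± 0.086, adjusted p = 1.34e-05). Aged LPS-treated cells still had 4.54 times the level of young untreated ones (log2 fold change 2.18, adjusted p = 4.93e-15).

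*Cyba* (ENSMUSG00000006519, chr8:122424776-122432930, minus strand) encodes the stabilizing partner of the heterodimer, which also docks p47phox. Its levels without LPS were 506, 435, 436, 331 and 411 CPM in young and 357, 375, 467, 366 and 387 CPM in aged cultures. With LPS they were 587, 580.3, 596, 437 and 521 CPM in young and 440.3, 472, 574, 460.3 and 491 CPM in aged cultures. All 4 groups overlapped with their neighbours, and the spread within a group (CV 10.6% to 14.8%) was among the widest of the 6 genes. LPS raised *Cyba* 1.28-fold in young (log2 fold change 0.36 ± 0.10 SE, adjusted p = 0.00358, edgeR, n = 5 per group) and 1.25-fold in aged cells (0.32 ± 0.10, adjusted p = 0.0107), with 5 of 5 batches higher at each age. When libraries were scaled by their total counts alone, which put the median log2 fold change of all genes at -0.23 and -0.16, these became 0.14 (adjusted p = 0.202, edgeR) and 0.16 (adjusted p = 0.159) and no longer passed. Relative to that median they were 0.37 and 0.32. The age difference was -0.12 without LPS (95% interval -0.33 to 0.093, adjusted p = 0.514, edgeR) and -0.16 with LPS (-0.37 to 0.052, adjusted p = 0.266), so losses of up to 0.33 and 0.37 on the log2 scale lie within the intervals. Batches went both ways, with 3 of 5 lower in aged cells without LPS and 4 of 5 with it. In its order of levels no neighbouring groups differed beyond the spread, aged LPS and young untreated cells included (0.20, adjusted p = 0.0925).

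**Figure D1:**
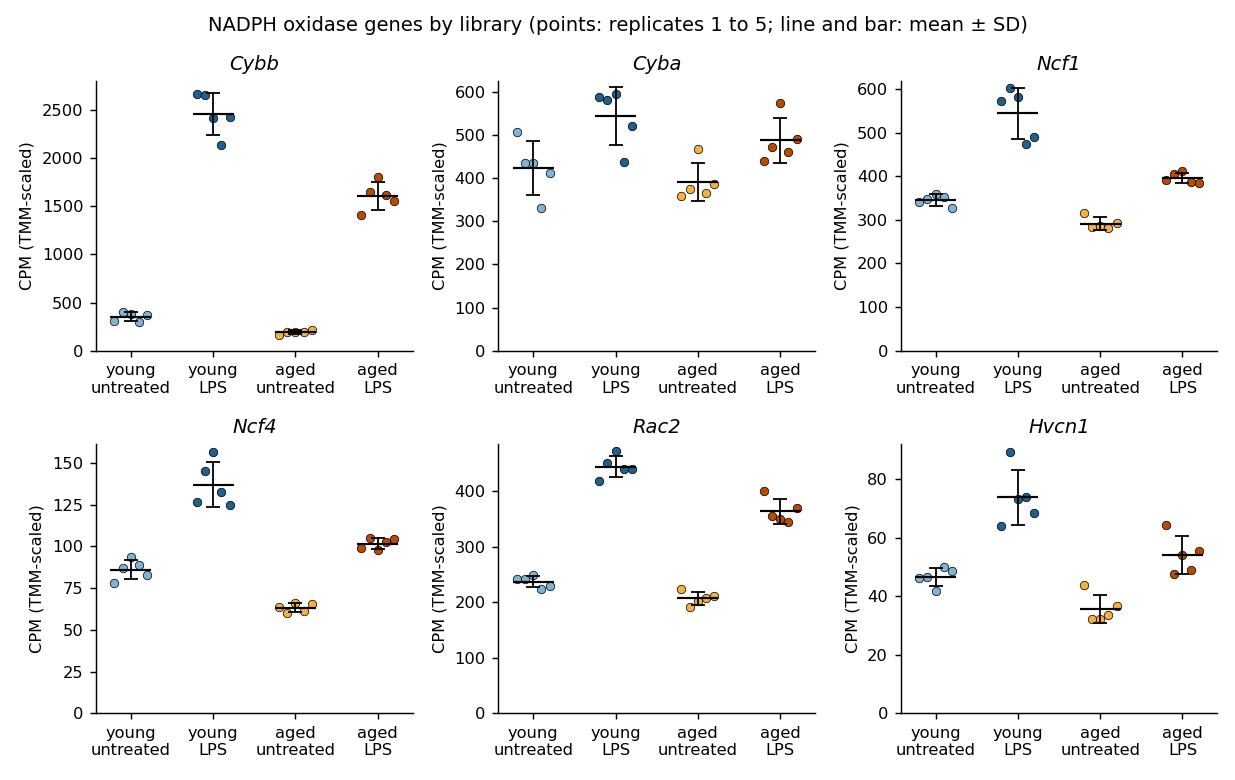
CPM of the 6 genes, scaled by TMM, in each of the 20 libraries (points, batches 1 to 5 from left to right), with the mean (line) and SD (bar) of each group of 5. *Cybb* spans 164 to 2662 CPM with 4 separate groups, whereas the groups of *Cyba* overlap between 331 and 596 CPM.

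The ratio of *Cybb* to *Cyba* was taken within each library and per exon base, so that it needed no scaling between libraries. As log2 values it was -3.17, -2.59, -2.67, -2.63 and -2.64 in young untreated and -3.60, -3.43, -3.73, -3.37 and -3.31 in aged untreated cultures. After LPS it was -0.30, -0.29, -0.47, -0.19 and -0.26 in young and -0.80, -0.68, -0.83, -0.67 and -0.82 in aged cultures. The 4 groups did not overlap, and *Cyba* was the more abundant in all 20 libraries. In linear terms there were 0.149 *Cybb* transcripts per *Cyba* transcript in young and 0.0893 in aged untreated cells, and 0.811 and 0.59 after LPS. The log2 ratio rose by 2.44 with LPS in young and by 2.72 in aged cells, and was lower in aged cells by -0.74 without and -0.46 with LPS. Each of these 4 differences had p = 0.00794 (exact two-sided permutation test, adjusted p = 0.00794 over the 4), the smallest that 252 regroupings of 5 against 5 allow. Each pointed the same way in 5 of 5 batches, as any pairing of groups that do not overlap must. Paired within batches, sign flips over 5 pairs cannot give a p below 0.0625 (exact), which is what all 4 gave. Replicate 1 stood apart among the young untreated libraries, at -3.17 against -2.67 to -2.59.

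The LPS responses of the cytosolic subunits lay between those of *Cyba* and *Cybb*. *Ncf1* (ENSMUSG00000015950, chr5:134220053-134229625, minus strand) encodes p47phox, the organizer that bridges the cytosolic subunits to the membrane. Its levels were 339.9, 348, 359.9, 353 and 326 CPM in young and 315, 284, 285, 282 and 292 CPM in aged untreated cultures. With LPS they were 572, 602, 582, 473 and 491 CPM in young and 392, 404, 412, 386 and 385 CPM in aged cultures. The 4 groups did not overlap, and the young LPS cultures fell into 3 at 572 CPM or more and 2 at 491 CPM or less. *Ncf1* rose 1.57-fold in young (log2 fold change 0.65 ± 0.058 SE, adjusted p = 1.23e-09, edgeR, n = 5 per group) and 1.36-fold in aged cells (0.44 ± 0.058, adjusted p = 1.03e-06). It was lower in aged cells by -0.25 ± 0.058 without LPS (adjusted p = 0.0079) and by -0.46 ± 0.058 with it (adjusted p = 4.33e-06). An overlapping gene on the opposite strand, *Gtf2ird2*, shares 408 exon bases with *Ncf1* and had 97 to 241 counts against 4224 to 8443 for *Ncf1*.

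*Ncf4* (ENSMUSG00000071715, chr15:78244801-78262580, plus strand) encodes p40phox, which binds phosphatidylinositol 3-phosphate on phagosomes. It stood at 78.3, 87.2, 93.6, 88.6 and 82.8 CPM in young and 63.8, 60.3, 66.1, 61.1 and 65.3 CPM in aged untreated cultures. After LPS it reached 127, 145, 157, 132 and 125 CPM in young and 98.7, 105, 97.8, 102 and 104 CPM in aged cultures. Here too the 4 groups lay apart. The LPS response of *Ncf4* was 1.59-fold in young (log2 fold change 0.67 ± 0.059 SE, adjusted p = 1.24e-09, edgeR) and 1.60-fold in aged cells (0.68 ± 0.060, adjusted p = 2.05e-09). Aged cells had a 1.36-fold lower level without LPS (-0.44 ± 0.060, adjusted p = 5.09e-05) and a 1.35-fold lower one with it (-0.43 ± 0.059, adjusted p = 1.07e-05). In untreated cells only the estimate for *Cybb* was lower among the 6 genes, and the difference between these genes was not tested.

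*Rac2* (ENSMUSG00000033220, chr15:78559167-78572783, minus strand) encodes the Rac GTPase of blood cells, which serves the oxidase in its GTP-bound form. Its levels were 243, 242, 249, 225 and 229.9 CPM in young and 224, 192, 202, 207 and 212 CPM in aged untreated cultures. With LPS they were 419, 450.4, 472, 441 and 439.8 CPM in young and 399.9, 356, 349.6, 345 and 370.0 CPM in aged cultures. The groups did not overlap, although the untreated young and aged cultures came within 1 CPM of each other at their edges (224 and 225 CPM). *Rac2* had the largest LPS response after *Cybb*, 1.87-fold in young (log2 fold change 0.90 ± 0.050 SE, adjusted p = 3.39e-13, edgeR) and 1.75-fold in aged cells (0.81 ± 0.050, adjusted p = 4.28e-12). Its loss with age was the smallest of the 5 that passed, -0.20 ± 0.050 without LPS (adjusted p = 0.0128) and -0.29 ± 0.049 with it (adjusted p = 0.000126).

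*Hvcn1* (ENSMUSG00000064267, chr5:122206804-122242297, plus strand), the proton channel, had the lowest level of the 6. It was at 46.4, 46.7, 41.7, 49.8 and 48.7 CPM in young and 43.8, 32.3, 32.3, 33.6 and 36.6 CPM in aged untreated cultures. With LPS it was at 63.9, 89.1, 73.2, 73.7 and 68.5 CPM in young and 64.1, 47.6, 53.9, 49.0 and 55.5 CPM in aged cultures. In batch 1 the aged and young cultures were close in both treatments, and the aged and young groups overlapped through that batch. *Hvcn1* rose 1.58-fold with LPS in young (log2 fold change 0.66 ± 0.094 SE, adjusted p = 2.07e-06, edgeR) and 1.51-fold in aged cells (0.60 ± 0.096, adjusted p = 1.5e-05). It was lower in aged cells by -0.39 ± 0.096 without LPS (adjusted p = 0.0113) and by -0.45 ± 0.094 with it (adjusted p = 0.000968). Aged LPS-treated and young untreated cells, neighbours in its order of levels, did not differ beyond the spread (0.21, adjusted p = 0.058). *Tctn1* on the opposite strand shares 1574 exon bases with *Hvcn1*. It had 31 to 117 counts against 480 to 1074 for *Hvcn1*, and its mean count fell with LPS, from 97.2 to 42.6 in young and from 91.0 to 52.0 in aged cells, while that of *Hvcn1* rose.

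**Figure D2:**
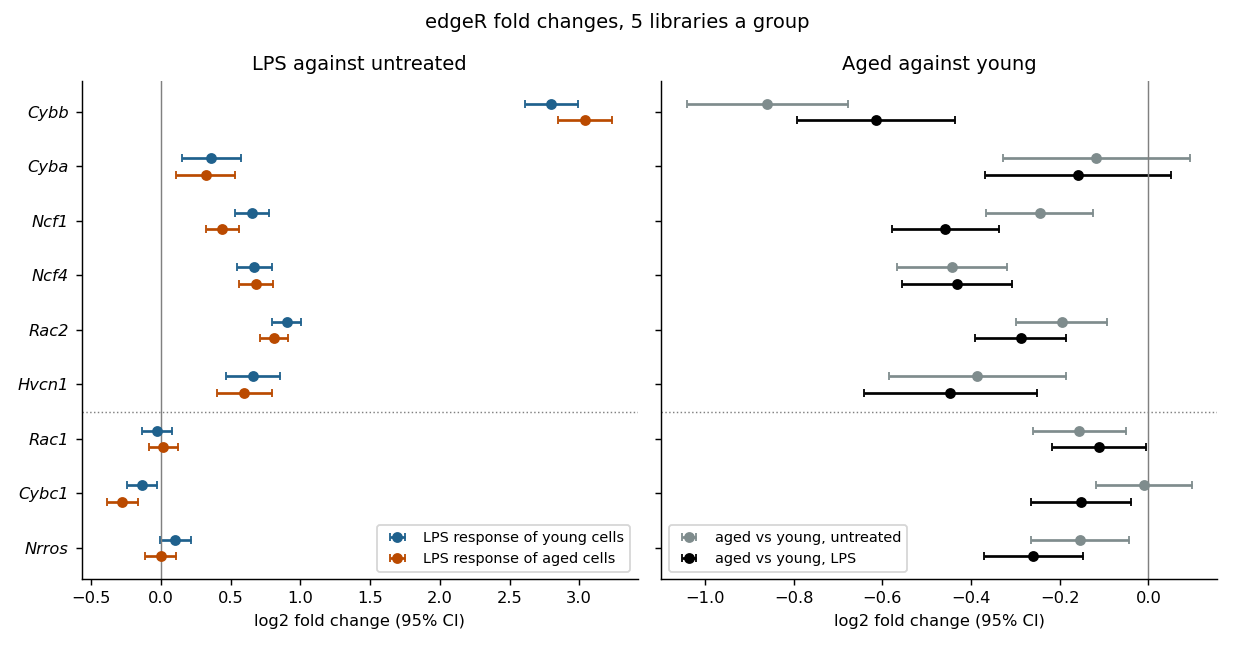
Log2 fold changes with 95% intervals (edgeR, n = 5 per group) for LPS against untreated (left) and aged against young cells (right), with the 6 genes above the dotted line and 3 related genes below it. *Cybb* lies apart on the left at 2.80 and 3.04, *Rac1* lies at 0, and on the right *Cyba* is the member whose intervals cross 0.

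Whether the LPS response itself differed between the ages was tested as an interaction. None of the 6 genes passed (edgeR, 0 of 6), against 6.39% of all genes that passed, and 1 of 6, *Ncf1*, had an unadjusted p below 0.05. DESeq2 and edgeR with the batch as a block also called 0. For *Cybb* the estimated response was higher in aged cells by 0.24 on the log2 scale and did not pass (95% interval -0.0086 to 0.50, adjusted p = 0.277, edgeR). The difference was above 0 in 5 of 5 batches, from 0.015 to 0.54. For *Ncf1* the estimate was lower by -0.21 (95% interval -0.38 to -0.043, adjusted p = 0.137, edgeR), in 4 of 5 batches. The *Ncf1* difference passed in DESeq2 with the batch as a block (-0.23, adjusted p = 0.0311) and in edgeR without replicate 4 of the young LPS cultures (-0.26, adjusted p = 0.0332). For *Cyba*, *Ncf4*, *Rac2* and *Hvcn1* the difference was between -0.093 and 0.012, with 95% intervals within -0.34 to 0.26.

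The comparisons by age were also read within batches. *Cybb*, *Ncf1*, *Ncf4* and *Rac2* were lower in the aged culture in 5 of 5 batches, without and with LPS. The aged and young groups of these genes did not overlap, so any pairing of cultures would give 5 of 5. The difference in *Cybb* ran from -1.04 to -0.59 log2 CPM without LPS and from -0.91 to -0.40 with it. *Hvcn1* was lower in 5 of 5 batches without LPS and in 4 of 5 with it, from -0.90 in batch 2 to 0.0046 in batch 1. Blocking on the batch in edgeR changed no call of the 6 genes. It gave *Cyba* an age difference of -0.11 without LPS (adjusted p = 0.338).

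**Figure D3:**
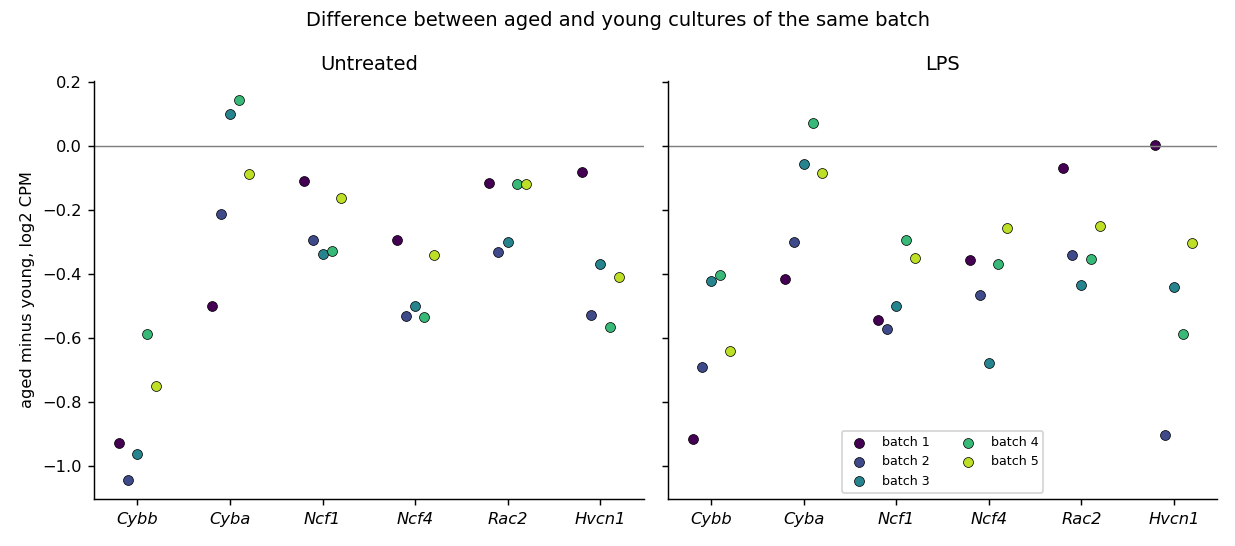
Aged minus young log2 CPM of each gene within each of 5 batches (colours), for untreated (left) and LPS-treated cultures (right). All differences in *Cybb* lie at -1.04 to -0.40, and *Cyba* and, in 1 LPS-treated batch, *Hvcn1* reach above 0.

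Levels of different genes were compared per exon length, as TPM, which divides counts by exon length and rescales each library to the same total. Of the 6 genes *Cyba* was the highest in every group, at 1482 ± 201 TPM (SD, n = 5) in young untreated, 1391 ± 150 in aged untreated, 1605 ± 178 in young LPS and 1542 ± 152 in aged LPS cells. *Cybb* passed *Ncf1* and *Rac2* with LPS, going from 221 ± 29.0 to 1297 ± 94.8 TPM in young and from 124 ± 11.7 to 909 ± 82.3 in aged cells. *Ncf1* was at 343 ± 19.3 and *Rac2* at 279 ± 12.8 TPM in young untreated cells. *Ncf4* (155 ± 13.4) and *Hvcn1* (47.6 ± 3.15) lay below them. With the length of the longest transcript in place of all exons the *Cybb* to *Cyba* ratio in young untreated cells was 0.131 in place of 0.149.

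**Figure D4:**
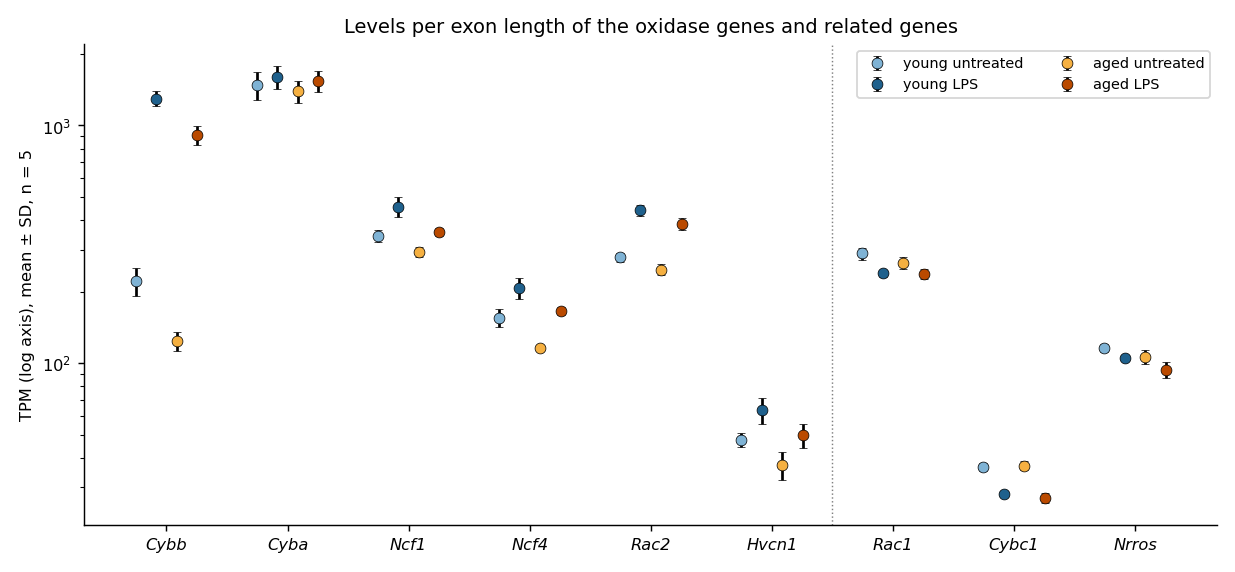
TPM (log axis, mean ± SD, n = 5 libraries) of the 6 genes and, right of the dotted line, 3 related genes in the 4 groups. *Cyba* stays between 1391 and 1605 TPM, and *Cybb* moves from 124 to 1297 TPM across the groups.

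3 other genes tied to the complex did not pass as higher after LPS at either age, against 31.2% (young) and 27.5% (aged) of all genes. The 3 are *Rac1*, the ubiquitous Rac, *Cybc1*, which acts in the folding and stability of the gp91phox protein, and its negative regulator *Nrros*. Their median log2 fold change with LPS was -0.028 in young and -0.0020 in aged cells, and *Cybc1* passed as lower at both ages (-0.14, adjusted p = 0.0303 in young, -0.28, adjusted p = 0.000128 in aged cells, edgeR). In DESeq2 *Cybc1* did not pass in young cells (-0.12, adjusted p = 0.0727). *Rac1* had log2 fold changes of -0.028 (95% interval -0.13 to 0.078) in young and 0.017 (-0.089 to 0.12) in aged cells, and with library totals alone in place of TMM -0.25 (adjusted p = 0.000259, edgeR) and -0.14 (adjusted p = 0.0245). With library totals alone *Nrros* also passed as lower in aged cells (-0.16, adjusted p = 0.0102, edgeR), so that 2 of 3 passed as lower in young and 3 of 3 in aged cells. Under that scaling 6401 of the 12799 genes tested passed as lower in young and 5476 in aged cells. *Rac1* shares 2309 exon bases with *Daglb* on the opposite strand, which had 446 to 1508 counts against 3486 to 5866.

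By age, none of the 3 passed without LPS in edgeR, against 11.5% of all genes, and 2 of 3 had an unadjusted p below 0.05. DESeq2 called 1, *Rac1* (-0.15, adjusted p = 0.0359), and edgeR with the batch as a block called 2 as lower in aged cells, *Rac1* (-0.16, adjusted p = 0.0106) and *Nrros* (-0.16, adjusted p = 0.025). The 11.5% belongs to edgeR without the block and cannot be set beside these calls. With LPS *Cybc1* (-0.15, adjusted p = 0.0379, edgeR) and *Nrros* (-0.26, adjusted p = 0.000819) were lower in aged cells, 2 of 3 against 15% of all genes. With the batch block *Rac1* passed as well (-0.11, adjusted p = 0.0369, edgeR). With library totals alone *Cybc1* (-0.072, adjusted p = 0.303) did not pass.

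Since *Rac1* and *Rac2* can both serve the oxidase, the share of *Rac2* in their sum was taken within each library, per exon base. It was 51.6%, 49.0%, 50.4%, 47.7% and 46.5% in young and 48.8%, 46.8%, 49.2%, 49.5% and 47.4% in aged untreated cultures. With LPS it was 63.8%, 64.4%, 67.0%, 65.2% and 63.1% in young and 63.0%, 61.4%, 62.9%, 61.0% and 60.9% in aged cultures. Both ages thus went from near equal shares to a majority of *Rac2*, and with LPS every young culture lay above every aged one. The height of these shares and their changes with LPS and age are uncertain, since *Rac1* shares 2309 exon bases with *Daglb* and the strand setting is not given. The mean *Daglb* count fell with LPS, from 1335 to 528.4 in young and from 1223 to 635.4 in aged cells. The part of *Daglb* reads in these shares was not tested. The share rose by 15.6 percentage points in young and 13.5 in aged cells, and was lower by -2.85 points in aged than in young LPS-treated cells (exact two-sided permutation tests, adjusted p = 0.0106 for each over 4 comparisons). Without LPS the age difference was -0.71 points (exact p = 0.516). Paired within batches, the first 3 each had p = 0.0625 (exact sign flips), the smallest that 5 pairs allow, and an adjusted p of 0.0833 over the 4 comparisons.

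**Figure D5:**
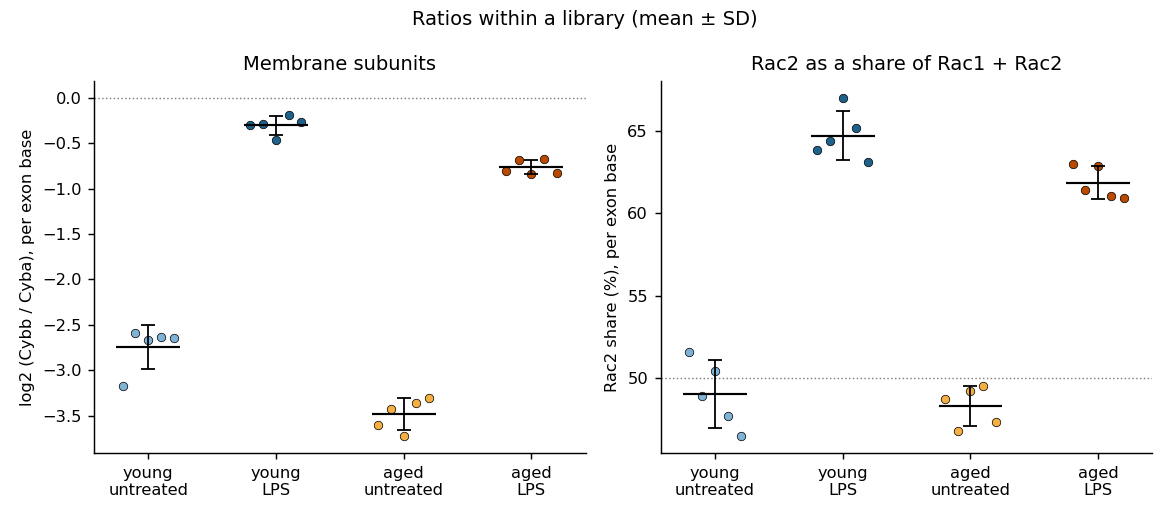
Log2 ratio of *Cybb* to *Cyba* (left) and share of *Rac2* in the sum of *Rac1* and *Rac2* (right), both per exon base, in each library (points) with mean and SD of 5. The ratio runs from -3.73 to -0.19 and stays below 0, and the share rises from 46.5% to 51.6% without LPS to 60.9% to 67.0% with it.

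Other NADPH oxidases gave almost no reads. Of the 9 genes for other catalytic subunits and their partners (*Nox1*, *Nox3*, *Nox4*, *Noxa1*, *Noxo1*, *Duox1*, *Duox2*, *Duoxa1* and *Duoxa2*) none passed the filter, and the highest count in any library was 6, for *Noxo1*. *Nox4*, *Noxa1*, *Duox1*, *Duox2* and *Duoxa2* had 0 counts in all 20 libraries, where the floor of 3 counts allows up to 0.178 to 0.264 CPM per library.

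Of 22 genes on a list of regulators of assembly (kinases, Rac regulators and lipid enzymes) 20 were tested. With LPS 13 of 20 passed in young and 14 of 20 in aged cells, against 64.6% and 54.4% of all genes. In young cells 7 rose and 6 fell, with a median log2 fold change of 0.077, and in aged cells 8 rose and 6 fell, with a median of 0.0034. With library totals alone 4 passed as higher and 10 as lower in young cells, and 4 and 8 in aged cells. Of the 12799 genes tested, 2407 then passed as higher and 6401 as lower in young cells, and 2172 and 5476 in aged cells. *Syk*, a tyrosine kinase downstream of phagocytic receptors, rose by 2.32 in young and 2.01 in aged cells on the log2 scale. *Prkcd*, a kinase that phosphorylates p47phox, rose by 0.86 and 0.44, and *Pik3c3*, which makes the lipid that p40phox binds, fell by 0.84 and 0.49. Their responses differed between the ages for *Prkcd* (-0.42, adjusted p = 0.0148, edgeR) and *Pik3c3* (0.34, adjusted p = 0.00628), and with the batch as a block also for *Syk* (-0.32, adjusted p = 0.0384).

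With age, 3 of these 20 passed without LPS and 6 of 20 with it, against 11.5% and 29% of all genes. Without LPS 1 was higher (*Prkca*, 0.33, adjusted p = 0.0278, edgeR) and 2 lower, the Rac exchange factors *Prex1* (-0.37, adjusted p = 0.00668) and *Vav3* (-0.26, adjusted p = 0.0249). The batch block called 6 in place of 3, adding *Syk* (-0.26), *Vav1* (-0.12) and *Pik3c3* (-0.15). These 6 cannot be read against the 11.5%, which belongs to the fit without the block. The share of all genes that passed with the block is not reported here. Among LPS-treated cells 5 were lower with age, led by *Prkcd* (-0.58, adjusted p = 3.98e-06), *Syk* (-0.57, adjusted p = 3.66e-05) and *Prex1* (-0.55, adjusted p = 4.02e-05), and *Pik3c3* was higher (0.19, adjusted p = 0.00856). With library totals alone 6 were higher and 3 lower. Over all 12799 genes, 3167 were then higher and 1353 lower. The medians over the 20 genes were -0.11 without and -0.053 with LPS.

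Of 5 genes for enzymes that supply NADPH, the electron donor, 3 passed as higher with LPS in young and 4 in aged cells, against 31.2% and 27.5% of all genes. The 3 in young cells were *Nadk*, which phosphorylates NAD (log2 fold change 1.56), *Me1*, malic enzyme (0.75), and *Pgd* of the pentose phosphate pathway (0.72). In aged cells the same 3 rose (1.54, 0.52 and 0.56), and *G6pdx*, the entry enzyme of that pathway, passed as well (0.38, adjusted p = 0.0391, edgeR, against 0.34, adjusted p = 0.0593, in young cells). The median was 0.72 in young and 0.52 in aged cells. With library totals alone 3 passed as higher and *Idh1* as lower at each age. Of all 12799 genes, 2407 then passed as higher and 6401 as lower in young cells, and 2172 and 5476 in aged cells. With age 0 of 5 passed in edgeR or DESeq2, against 11.5% of all genes in edgeR without and 29% with LPS. At an unadjusted p below 0.05 there were 0 without and 1 with LPS.

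Of 6 genes that dispose of superoxide and peroxide 5 were tested, and 3 rose with LPS at both ages, against 31.2% of all genes that passed as higher in young and 27.5% in aged cells. Mitochondrial superoxide dismutase, *Sod2*, rose by 2.27 in young and 2.00 in aged cells, *Prdx1*, a peroxiredoxin, by 1.40 and 0.83, and catalase, *Cat*, by 0.86 and 0.84. The median over the 5 was 0.86 in young and 0.83 in aged cells. *Sod1* and *Gpx1* passed as lower when libraries were scaled by their totals alone. Under that scaling 6401 of all 12799 genes passed as lower in young and 5476 in aged cells. *Sod2* (-0.23, adjusted p = 0.0103, edgeR) and *Cat* (-0.27, adjusted p = 0.037) were lower in aged untreated cells, and *Sod2*, *Cat* and *Prdx1* in aged LPS-treated cells (-0.51, -0.28 and -0.61). Lower with age were thus 2 of 5 without and 3 of 5 with LPS, against 7.81% and 15% of all genes. The *Sod2* response was smaller in aged cells (-0.28, adjusted p = 0.0375), and with the batch as a block that of *Prdx1* as well (-0.57, adjusted p = 0.0195). The calls of *Cat* by age did not pass with library totals alone (adjusted p = 0.0632 without and 0.0624 with LPS), nor did the difference in *Sod2* response (adjusted p = 0.0695).

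Transcription factors known to act on these promoters were taken as a list of 6. PU.1 (*Spi1*) and IRF8 are lineage factors of phagocytes, and IRF1, IRF2 and the NF-kB subunits respond to interferon and LPS. In young cells 5 rose with LPS (31.2% of all genes did), led by *Irf1* (2.23) and *Nfkb1* (2.01), and *Irf8* fell by 0.33. *Irf2* (0.36) did not pass with library totals alone. In aged cells 4 rose (27.5% of all genes), with *Nfkb1* at 2.00 and *Irf1* at 1.38, *Irf8* fell by 0.20, and *Irf2* did not pass (0.018, adjusted p = 0.915, edgeR). *Irf8* (-0.26), *Nfkb1* (-0.23) and *Spi1* (-0.18) were lower in aged untreated cells, 3 of 6 against 7.81% of all genes. With LPS 5 of 6 were lower in aged cells, against 15% of all genes, from *Nfkb1* (-0.25) and *Spi1* (-0.27) to *Irf1* (-1.11). The median of the 6 was 1.07 and 0.95 for the LPS responses of young and aged cells, and -0.23 and -0.28 for age without and with LPS. The response of *Irf1* was smaller in aged cells (-0.85, adjusted p = 0.0349). The difference of the *Cybb* responses (0.24) did not pass, and no link between these factors and the members was tested.

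For each member the genes with the most similar profile over the 20 libraries were found among 7949 genes, by the root-mean-square difference of log2 CPM after centring. Nearest to *Cybb* were *H2-Q4* (0.179), *Ifi207* (0.211) and *Fam49a* (0.22), set against the own spread of *Cybb* of 1.51. *H2-Q4* belongs to a family of near-identical MHC genes, so its counts are uncertain. *Cyba* was closest to *Cd63* (0.0804), *Ncf1* to *Tbc1d13* (0.0662), *Ncf4* to *Dock10* (0.103), *Rac2* to the kinase gene *Lyn* (0.0755) and *Hvcn1* to *Bcl2l11* (0.132). None of the 6 members' nearest genes was shared with another member among the first 3.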

How the data were processed

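The authors prepared stranded poly(A) libraries, aligned reads to GRCm38 with STAR 2.6.1d and counted them per gene with featureCounts 1.5.1. The deposited values are raw counts, with no normalization by the authors. The strand and multiple-alignment settings are not given in the sources used here. Groups and batch numbers came from the labels.

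One edgeR quasi-likelihood model (edgeR 4.0.16, R 4.3.3) was fitted to all 20 libraries, with a term for the group, TMM factors and the filterByExpr filter, leaving 12799 genes. Benjamini-Hochberg adjustment ran over these genes, and the threshold was 0.05. CPM used TMM-scaled library sizes, log2 CPM a prior count of 2, and TPM the exon lengths of GENCODE M21, which held 55227 of 55487 identifiers. SE is that of the log2 fold change. Ratios within libraries were compared by exact permutation tests (Python 3.11.15). Promoters came from RefSeq. The edgeR fit was tested on simulated data. Replicate numbers are batch numbers in the labels and so pair the cultures. Deviations from group means of same-numbered cultures correlated by -0.21 to 0.39 (mean 0.146). The mean was 0.268 between untreated and LPS-treated cultures of the same age, and 0.0769 between aged and young cultures of the same treatment. Pairs of libraries of a group varied by 2.42 to 26.8 times what counting error gives (chi-square per degree of freedom). Alternatives were DESeq2 1.42.0, the batch as a block, other scalings and filters, other gene lengths, and each replicate or library left out in turn.

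The members, the gene lists and the tests were chosen with earlier results of these data known. Lists are described by all their members, and examples are those with the largest changes that passed or known partners. Some genes of the lists are not reported here.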

Additional observations from a re-analysis of the deposited data

Results flagged for a closer look

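In young untreated cultures the log2 ratio of *Cybb* to *Cyba* in replicate 1 (-3.17) lay far below the other 4 (-2.67 to -2.59). The gap was 0.878 of the range of the group, above Dixon's 95% critical value for 5 samples. Chance flags about 1 in 20 groups. In that library *Cyba* was the highest of its group, at 506 CPM, and *Cybb* was the second lowest, at 313 CPM. Without replicate 1 the age difference of the ratio in untreated cells was -0.82 (exact permutation p = 0.0286, the smallest that 4 against 4 allow). The cause was not tested.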

How the results depend on the processing

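Of 30 results for single genes (6 genes in 5 comparisons), 24 kept their side of the threshold under all alternatives, and none that passed changed sign. The differences between LPS responses, which did not pass, crossed 0 for *Cyba* (-0.11 to 0.036), *Ncf4* (-0.027 to 0.072) and *Hvcn1* (-0.13 to 0.024). The others are the losses of *Ncf1*, *Rac2* and *Hvcn1* between untreated cells, the LPS responses of *Cyba* at both ages, and the difference of the *Ncf1* responses. Leaving out replicates or single libraries gave 3 to 5 members lower in aged untreated cells and 0 to 1 in the difference of LPS responses. The latter was also 1 with the replicate block in DESeq2. The replicate block changed no other call of a member. Ratios paired within batches kept their values but cannot pass: 2.44, 2.72, -0.74 and -0.46 for *Cybb* to *Cyba*, and 15.6, 13.5 and -2.85 points for the *Rac2* share. Scaling by library totals alone changed the share of genes passing (DEGs) that were higher from 48.2% to 27.3% for LPS in young cells, from 50.6% to 28.4% in aged cells, from 48.3% to 70.1% between aged and young LPS-treated cells, from 32.2% to 42.2% between untreated cells and from 64.4% to 81.3% for the difference of responses. Without replicate 2 the DEGs over all genes fell from 1475 to 548 between untreated cells, from 3717 to 2156 between LPS-treated cells and from 818 to 189 for the difference of responses. The last count was 532 without replicate 4 and 410 without replicate 5. Between untreated cells it was 977 without young replicate 2, 954 without young replicate 3 and 981 without aged replicate 4. The replicate block in DESeq2 gave 2254 between untreated cells and 1362 for the difference of responses. Depth limits the other NADPH oxidases, which lie at or near the floor of 3 counts.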
